A study of Mus musculus with 12 samples.

Results

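The genes described here are the ubiquitin-conjugating enzymes (E2) of mouse resting B cells, taken as every non-control probe whose array gene name starts with Ube2. 78 probes for 35 gene symbols met this rule, out of 61307 non-control probes of the array, whose gene expression probes carry 29411 gene symbols. Each gene is represented by its brightest probe (the highest mean level over the 12 arrays), and the other probes are described where they differ. 24 of the 35 genes had several probes and 11 had 1 probe. Ube2s was chosen by its measured levels in these groups, which were already known, so its levels and differences are given as a description, without a test.

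RNA came from resting B cells of the spleens of 6 weeks old BALB/c mice, which the labels give as female and the methods as of either sex, stimulated for 4 h. The 6 groups, with 2 arrays each, were unstimulated cells, Pam2CSK4 (a synthetic lipopeptide that activates TLR-2), an antibody to CD86, Pam2CSK4 together with anti-CD86 (called TLR2.CD86), an antibody to CD40, and anti-CD40 with Pam2CSK4. All mice were of 1 strain with no transgene named, and resting B cells were obtained by removing CD43-positive cells. The biotinylated anti-CD86 was crosslinked with streptavidin in the study's protocol, and an isotype antibody control is not analysed here. The paper's figure legends describe its array data as 2 biological replicates. Nothing in the labels says that the arrays of a group came from separate mice, so p-values measure only the spread between these samples.

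Ubiquitin is passed from an activating enzyme (E1) to the cysteine of an E2 and then, with a ligase (E3), to a substrate. The E2 often decides which kind of chain is built: some E2 enzymes place the first ubiquitin, some extend K48 chains that mark proteins for the proteasome, some extend K63 chains used in signalling, and a few carry ubiquitin-like proteins such as NEDD8 or ISG15 in place of ubiquitin. In B cells K63 chains and linear chains relay signals from Toll-like receptors and CD40. Ube2c and Ube2s serve the anaphase-promoting complex, the ligase that ends mitosis, where Ube2c starts K11 chains and Ube2s extends them.

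The level of a gene is log2 of the processed signal minus the 75th percentile of that array, so each unit is a doubling, and levels of different probes are not compared. 31 of the 35 genes were well above background on all 12 arrays and no member probe was saturated. Ube2l6, the E2 of ISG15, was well above background on 7 arrays and Ube2d1 on 5, and neither was called in any comparison. Ube2u (1 array) and Ube2dnl (0 arrays) were not tested, which left 33 genes. No value is given for these 2.

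The arrays lay on 2 slides. 8 arrays were on slide 1, among them both arrays of unstimulated cells and both of anti-CD40 with Pam2CSK4, while each of the other 4 groups had 1 array on each slide. 46.6 to 60.6% of spots were well above background, and 18062 of the 31599 probes tested differed between slides. Of the 33 Ube2 genes tested, 24 differed between slides and all 24 were lower on slide 2, with a median difference of -0.25 over the 33 genes. The median absolute difference between the 2 arrays of a group was 0.0238 in unstimulated cells and 0.0538 with anti-CD40 and Pam2CSK4, where both arrays shared a slide, and 0.142 to 0.333 in the 4 groups split over slides. Results are therefore given from the fit without a slide term and from the fit with slide as a block. The comparison of anti-CD40 with Pam2CSK4 against unstimulated cells lies wholly within slide 1. All 6 B cell markers of the list were well above background on all arrays. The myeloid list, 7 of 7 genes of which were above background, had a mean level of 2.14 and 2.16 in unstimulated cells and of 1.51 to 2.06 in the stimulated groups. Of its genes, 4 fell with TLR2.CD86, 2 with anti-CD40 and 4 with anti-CD40 and Pam2CSK4. Of all genes, 10.5%, 14.7% and 13% were lower in these comparisons without the slide term (limma, adjusted p under 0.05). With slide as a block the shares were 28.4%, 29.5% and 31.3%. The T cell list (5 of 6 genes above background on all arrays) ranged from -0.539 to -0.159 and the NK list (2 of 3) from -1.49 to -0.709. Their part in the results was not tested.

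The Ube2s results rest on 1 probe of 60 bases. No run of 20 bases of it occurred in any other probe of the array, and it is shown because every Ube2s value below was read with it.
Ube2s probe: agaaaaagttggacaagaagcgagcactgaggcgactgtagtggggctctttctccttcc
The probe's position in the genome is not given in the sources used here, and its file entry lists it as unmapped.

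Of the 31 genes measured on all arrays, Ube2s had the widest range. Its level was 3.78 and 3.75 in unstimulated cells, 3.60 and 3.25 with Pam2CSK4, 3.48 and 3.12 with anti-CD86, and 2.56 and 2.23 with TLR2.CD86. With anti-CD40 alone it was 3.39 and 2.92, and with anti-CD40 and Pam2CSK4 it was 5.40 and 5.51. The arrays of TLR2.CD86 were the lowest 2 of the 12, and those of anti-CD40 with Pam2CSK4 were the highest 2.

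Relative to unstimulated cells, the mean of Ube2s was 2.59-fold lower in TLR2.CD86 cells (log2 difference -1.37, SE 0.21, n = 2 against 2). It was 3.22-fold higher with anti-CD40 and Pam2CSK4 (log2 difference 1.69, SE 0.21). With single stimuli the log2 differences were -0.34 for Pam2CSK4, -0.46 for anti-CD86 and -0.61 for anti-CD40. With slide as a block the 5 differences were -0.15, -0.27, -1.18, -0.42 and 1.69 in the order Pam2CSK4, anti-CD86, TLR2.CD86, anti-CD40 and anti-CD40 with Pam2CSK4. On slide 1, the TLR2.CD86 array (2.56) was below the Pam2CSK4 (3.60) and anti-CD86 (3.48) arrays. On slide 2, the TLR2.CD86 array (2.23) was likewise below the Pam2CSK4 (3.25) and anti-CD86 (3.12) arrays. Adding Pam2CSK4 to anti-CD40 went with a difference of 2.30 in the mean Ube2s level, adding it to anti-CD86 with one of -0.91, and adding it to unstimulated cells with one of -0.34.

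Ube2c, which starts the chains that Ube2s extends, stayed within a much narrower range. Its level was 0.90 and 0.88 in unstimulated cells, 1.00 and 0.54 with Pam2CSK4, 0.74 and 0.52 with anti-CD86, 0.66 and 0.11 with TLR2.CD86, 0.55 and 0.14 with anti-CD40, and 0.72 and 0.65 with anti-CD40 and Pam2CSK4. The groups overlapped in Pam2CSK4 and did not in the others. No comparison of Ube2c passed the limma test without the slide term. With slide as a block Ube2c fell by 0.30 with TLR2.CD86 and by 0.34 with anti-CD40, and its difference with anti-CD40 and Pam2CSK4 was -0.20 (not called).

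**Figure D1:**
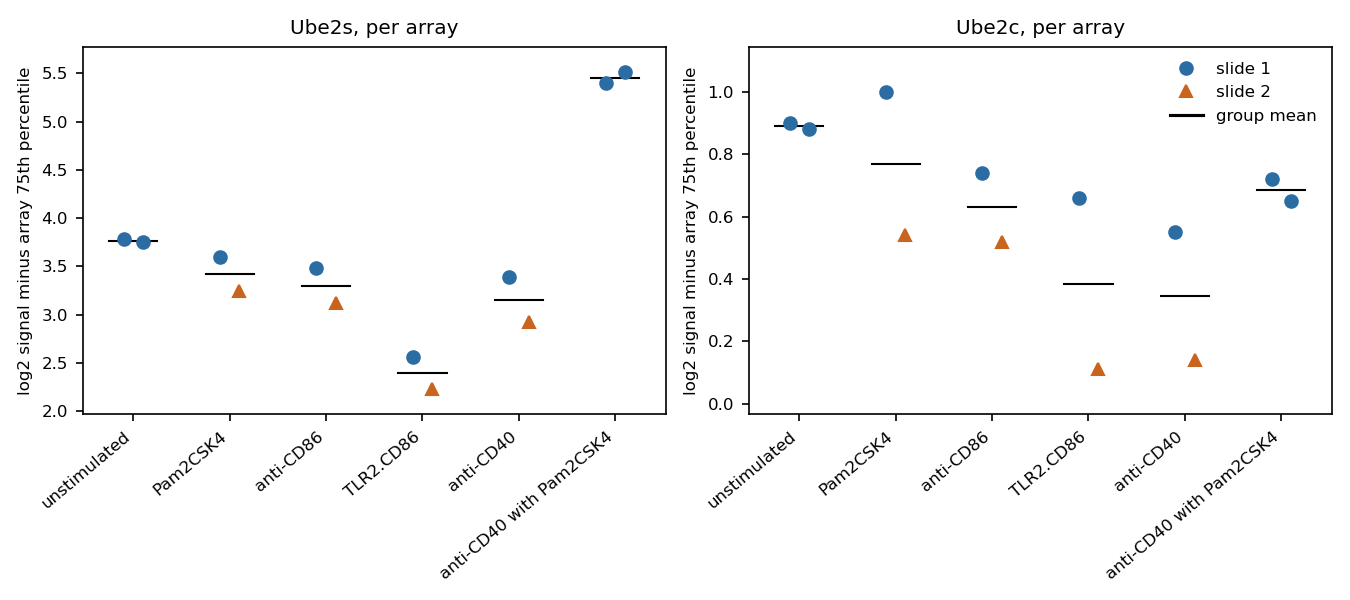
Level of Ube2s (left) and Ube2c (right) on each of the 12 arrays, as log2 signal minus the array's 75th percentile; circles are arrays on slide 1, triangles arrays on slide 2 and bars group means, and the y axes differ. Ube2s lay at 5.40 and 5.51 with anti-CD40 and Pam2CSK4 and at 2.56 and 2.23 with TLR2.CD86, while Ube2c stayed between 0.11 and 1.00.

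The 250 bases before the annotated start are shown for both enzymes of the anaphase-promoting complex and for Ube2t, a member that fell where Ube2s did not. They are from RefSeq, build GRCm38.p6, 5′ to 3′ on the gene's strand. Capitals mark CCAAT as well as TTTGAA and also GGGGCGGGG on either strand (1 pair of CCAAT in the Ube2c window overlaps).
Ube2s, chr7:4812341-4812590, minus strand: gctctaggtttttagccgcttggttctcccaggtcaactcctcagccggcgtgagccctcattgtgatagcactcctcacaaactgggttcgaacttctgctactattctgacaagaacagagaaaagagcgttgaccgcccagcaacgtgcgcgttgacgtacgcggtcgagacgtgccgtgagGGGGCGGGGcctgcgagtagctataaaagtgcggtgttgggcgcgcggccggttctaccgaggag
Ube2c, chr2:164769679-164769928, plus strand: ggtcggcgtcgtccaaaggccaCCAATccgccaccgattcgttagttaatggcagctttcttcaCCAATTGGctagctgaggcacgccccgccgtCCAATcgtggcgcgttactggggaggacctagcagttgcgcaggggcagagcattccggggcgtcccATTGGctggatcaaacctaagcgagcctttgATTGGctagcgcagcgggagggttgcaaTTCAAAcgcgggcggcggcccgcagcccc
Ube2t, chr1:134962315-134962564, plus strand: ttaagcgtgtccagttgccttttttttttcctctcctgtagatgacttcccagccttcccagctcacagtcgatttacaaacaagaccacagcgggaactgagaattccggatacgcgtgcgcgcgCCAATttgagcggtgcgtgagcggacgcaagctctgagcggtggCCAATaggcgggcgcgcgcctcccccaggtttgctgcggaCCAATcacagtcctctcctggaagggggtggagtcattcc
The Ube2s window held GGGGCGGGG and neither of the other 2 letter runs, the Ube2c window held CCAAT and TTTGAA, and the Ube2t window held CCAAT. 27 of the 35 genes had such a window. CCAAT occurred in 7 of the 27 and in 37.5% of all 27025 genes with a window, TTTGAA in 3 and in 18.3%, and GGGGCGGGG in 10 and in 11.8%. CACGTG occurred in 2 of the 27 and in 6.86% of all genes, and an NF-kB consensus in 0 and in 0.414%. A match of letters is a description of the window and no evidence of binding.

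Across the family, the fit without a slide term called 7 of 33 genes with TLR2.CD86, 5 with anti-CD40 and 6 with anti-CD40 and Pam2CSK4 against unstimulated cells, and 0 with either Pam2CSK4 or anti-CD86 alone. A gene was called where limma's adjusted p over all 31599 probes was under 0.05. The background was the share of all 16751 genes, each by its brightest probe, called the same way. For Pam2CSK4 it was 0.107% higher and 0.0478% lower, and for anti-CD86 0.472% higher and 1.58% lower. At an unadjusted p under 0.05, 7 Ube2 genes passed with Pam2CSK4 and 9 with anti-CD86, against 16.8% and 25.5% of all genes, and limma with slide as a block called 5 and 12. With TLR2.CD86 all 7 were lower (background 10.5% lower, 1.79% higher). With anti-CD40, 4 were lower (background 14.7%) and 1 was higher (4.67%). With anti-CD40 and Pam2CSK4, 4 were lower (background 13%) and 2 were higher (7.38%). The median log2 difference of the 33 genes was -0.20 with TLR2.CD86 against -0.17 over all genes, -0.25 against -0.15 with anti-CD40, and -0.07 against -0.08 with anti-CD40 and Pam2CSK4. Apart from Ube2s, 6, 5 and 5 of the other 32 genes were called in these 3 comparisons.

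These counts depended on single arrays, also on those of other groups, since all 12 share 1 estimate of the spread. With TLR2.CD86 the count went from 7 to 0 without either unstimulated array or without the second TLR2.CD86 array, and to 2 without the first. It was 3 without either array of anti-CD40 with Pam2CSK4, 4 without either anti-CD86 array, 5 without either Pam2CSK4 array and 9 without either anti-CD40 array. With anti-CD86 it went from 0 to 2 without either anti-CD40 array. With anti-CD40 it went from 5 to 0 without either unstimulated array, to 10 without the first anti-CD40 array and to 1 without the second. With anti-CD40 and Pam2CSK4 it went from 6 to 3 and 2 without the first and second unstimulated array and to 2 and 4 without the first and second stimulated array.

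Under the slide block more members were called, as were more genes of the array. 5 of 33 passed with Pam2CSK4, 4 lower and 1 higher, where 8.08% of all genes were lower and 4.14% higher. 12 passed with anti-CD86, 10 lower (background 20.4%) and 2 higher (10.4%). 16 passed with TLR2.CD86, 14 lower (28.4%) and 2 higher (10.6%). 18 passed with anti-CD40, 12 lower (29.5%) and 6 higher (12.9%). 14 passed with anti-CD40 and Pam2CSK4, 7 lower (31.3%) and 7 higher (21.7%). In this fit 26 of the 33 genes were called in 1 or more of the 5 comparisons, as were 71.3% of all genes. Of the 33, 17 were only lower (41.3% of all genes), 7 only higher (24.3%) and 2 in both directions (5.74%). Ube2j1, Ube2t and Ube2z were called in all 5 (6.24% of all genes). The 5 comparisons share the unstimulated arrays. Without Ube2s the 5 counts were 5, 11, 15, 17 and 13 of 32.

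**Figure D2:**
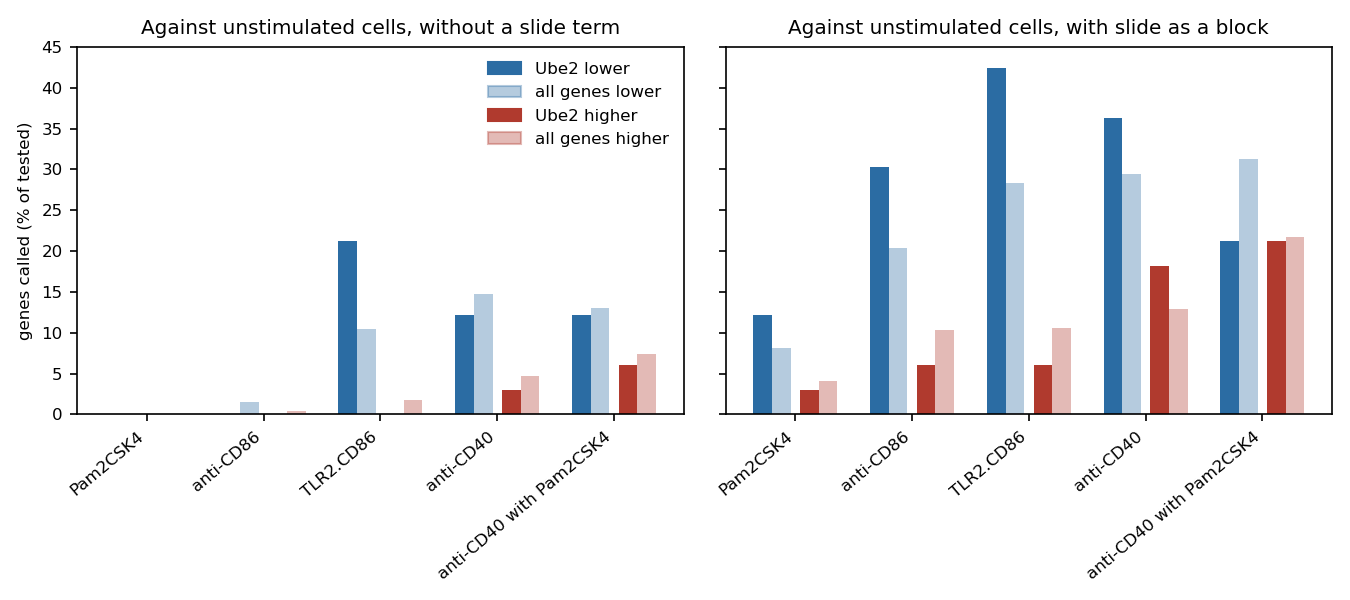
Percent of Ube2 genes (solid bars, of 33 tested) and of all genes (pale bars, of 16751) called lower (blue) or higher (red) than unstimulated cells, without a slide term (left) and with slide as a block (right). The Ube2 share of lower calls lay above that of all genes with TLR2.CD86 in both fits and below it with anti-CD40 and Pam2CSK4.

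**Figure D3:**
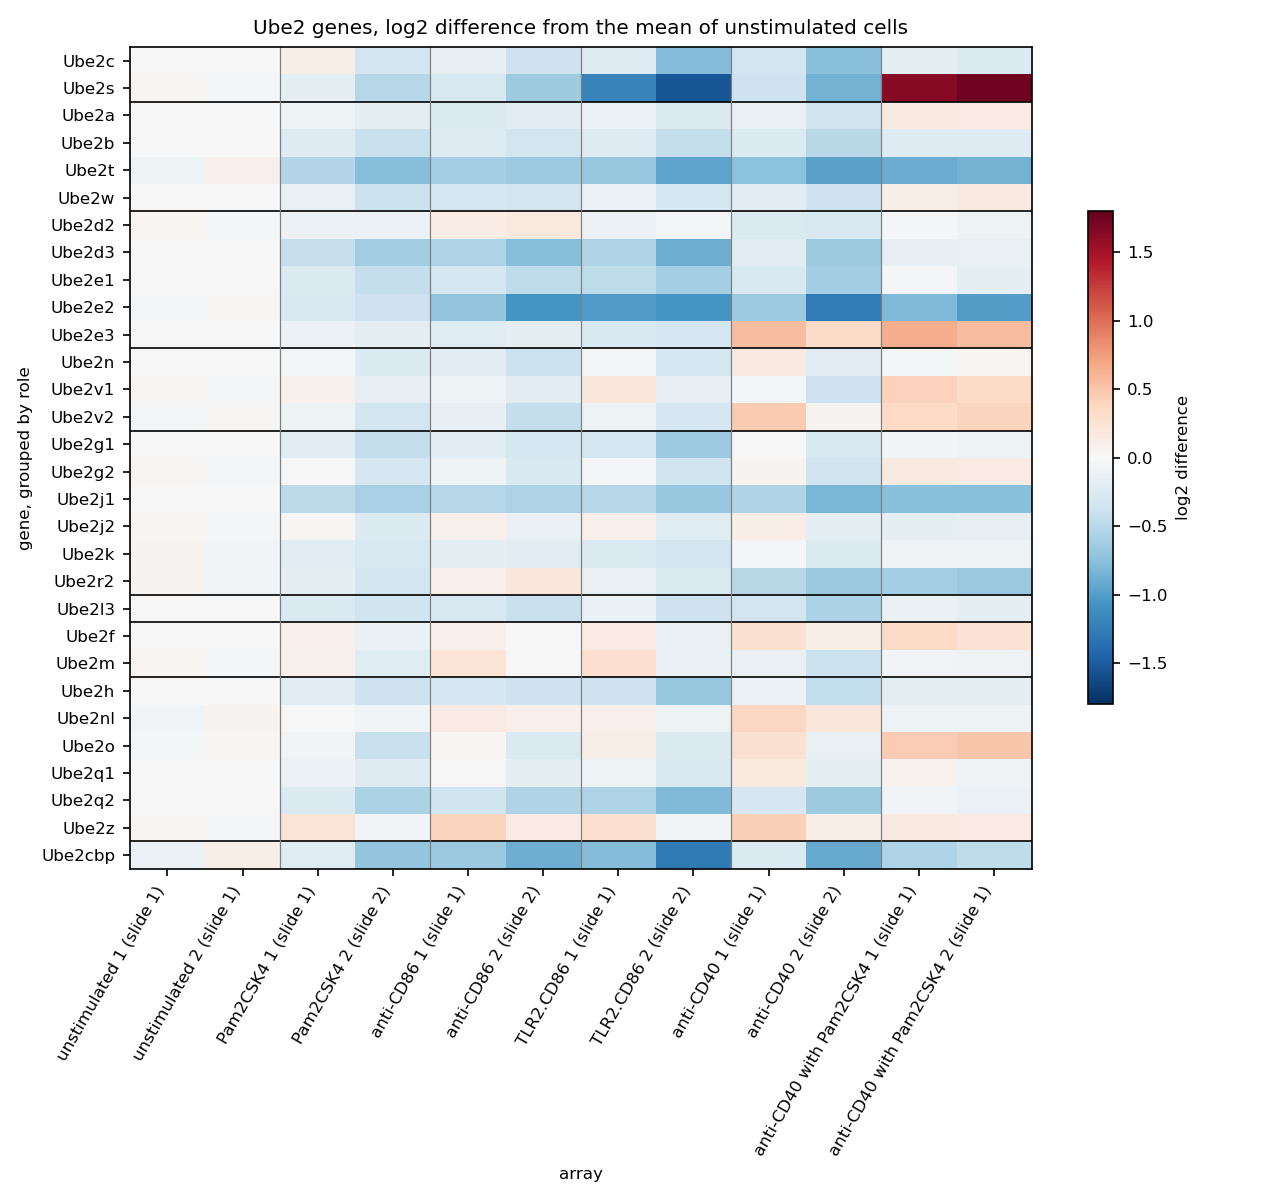
Log2 difference of 30 of the 31 genes measured on all arrays from their mean in unstimulated cells, 1 row per gene grouped by role (black lines) and 1 column per array, with its slide. Ube2s is the reddest row with anti-CD40 and Pam2CSK4 and the bluest with TLR2.CD86. Ube2t, Ube2e2 and Ube2j1 are blue on all 10 stimulated arrays, as are other rows such as Ube2b, Ube2d3, Ube2h and Ube2cbp. The median difference of all genes without the slide term was also negative with every stimulus (-0.17 to -0.08).

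Among the E2 enzymes of DNA repair, Ube2t, which works with the ligase Fancl on the Fanconi anaemia proteins, fell with each stimulus that reached the threshold. Its level was 0.38 and 0.56 in unstimulated cells, -0.06 and -0.30 with Pam2CSK4, -0.13 and -0.18 with anti-CD86, -0.21 and -0.48 with TLR2.CD86, -0.27 and -0.50 with anti-CD40, and -0.43 and -0.38 with anti-CD40 and Pam2CSK4. All 10 stimulated arrays lay below both unstimulated arrays. Ube2t fell by 0.81 (SE 0.15) with TLR2.CD86 (limma, adjusted p = 0.0202), by 0.85 with anti-CD40 (limma, adjusted p = 0.0108) and by 0.87 with anti-CD40 and Pam2CSK4 (limma, adjusted p = 0.00635). With slide as a block it also fell by 0.55 with Pam2CSK4 and by 0.52 with anti-CD86. Fancl fell by 0.43 with TLR2.CD86 and by 0.39 with anti-CD40 and Pam2CSK4. Ube2a, Ube2b and Ube2w, the others of this group, were not called without the slide term. The Rad6 enzyme Ube2b fell with the block by 0.24, 0.28 and 0.22 in the last 3 comparisons, and the probe of Ube2b ranked 3 by brightness went the other way with anti-CD40 and Pam2CSK4 (0.19, called with the block).

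The D and E groups pair with many RING ligases and often place the first ubiquitin. The E group members Ube2e2 and Ube2e3, each read with 1 probe, went in opposite directions under CD40 stimulation. Ube2e2 was at -1.32 and -1.27 in unstimulated cells, -1.57 and -1.67 with Pam2CSK4, -2.01 and -2.35 with anti-CD86, -2.31 and -2.36 with TLR2.CD86, -1.95 and -2.55 with anti-CD40, and -2.09 and -2.30 with anti-CD40 and Pam2CSK4. No stimulated array reached the unstimulated level. Ube2e2 fell by 1.04 (SE 0.20) with TLR2.CD86 (limma, adjusted p = 0.0234), by 0.96 with anti-CD40 (limma, adjusted p = 0.0198) and by 0.90 with anti-CD40 and Pam2CSK4 (limma, adjusted p = 0.0193).

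Ube2e3 was at 3.26 and 3.26 in unstimulated cells, 3.15 and 3.09 with Pam2CSK4, 3.04 and 3.09 with anti-CD86, 2.98 and 2.96 with TLR2.CD86, 3.81 and 3.61 with anti-CD40, and 3.92 and 3.82 with anti-CD40 and Pam2CSK4. The 4 arrays with anti-CD40 were above all 8 others. It rose by 0.44 (SE 0.11) with anti-CD40 (limma, adjusted p = 0.0304) and by 0.61 with anti-CD40 and Pam2CSK4 (limma, adjusted p = 0.00707). Scaling to the array median in place of the 75th percentile turned the anti-CD40 difference to -0.12, while quantile scaling gave 0.57 and kept the call. With slide as a block Ube2e3 also fell by 0.27 with TLR2.CD86. Ube2e1, the remaining E member, fell with the block by 0.28 with anti-CD86, 0.43 with TLR2.CD86 and 0.34 with anti-CD40.

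Ube2d3 was at 4.74 and 4.74 in unstimulated cells, 4.32 and 4.12 with Pam2CSK4, 4.19 and 3.98 with anti-CD86, 4.20 and 3.86 with TLR2.CD86, 4.54 and 4.10 with anti-CD40, and 4.59 and 4.60 with anti-CD40 and Pam2CSK4. All stimulated arrays were below the unstimulated ones. It fell by 0.71 (SE 0.18) with TLR2.CD86 (limma, adjusted p = 0.0454). Its other 2 probes did not follow: with slide as a block the 3 probes spanned -0.56 to 0.03 in that comparison and only the brightest was called. With anti-CD40 the brightest fell by 0.27 and the dimmest rose by 0.20. The fall of Ube2d3 is therefore a value of 1 of its 3 probes, no pair of which shares a run of over 6 bases.

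Among the K63 enzymes, Ube2n is the active E2, and Ube2v1 and Ube2v2 are partners without the catalytic cysteine that orient ubiquitin for K63 linkage. None was called without the slide term. Ube2v2 was at 0.40 and 0.43 in unstimulated cells, 0.32 and 0.08 with Pam2CSK4, 0.27 and -0.01 with anti-CD86, 0.33 and 0.11 with TLR2.CD86, 0.89 and 0.46 with anti-CD40, and 0.78 and 0.82 with anti-CD40 and Pam2CSK4. The 4 arrays with anti-CD40 were again above the rest. In the slide block fit Ube2v2 rose by 0.41 with anti-CD40 and by 0.39 with anti-CD40 and Pam2CSK4, and all 3 of its probes were called higher in both comparisons. Ube2v1 rose by 0.38 with anti-CD40 and Pam2CSK4 in that fit. The difference of Ube2n in that comparison was 0.00 (SE 0.16 without the slide term). Of the ligases that use these enzymes, Traf6 rose by 0.73 with anti-CD40 and by 0.92 with anti-CD40 and Pam2CSK4, Birc2 by 0.88 and 0.98, and Birc3 by 0.94 and 1.35 (called in both fits). Without the slide term these were the only risers among the 18 partner ligases listed, and others of that list fell. Of all genes, 4.67% and 7.38% were higher in these 2 comparisons.

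The K48 and endoplasmic reticulum enzymes held 6 members. Ube2j1, an enzyme of endoplasmic reticulum-associated degradation, was at 5.82 and 5.82 in unstimulated cells, 5.35 and 5.23 with Pam2CSK4, 5.30 and 5.26 with anti-CD86, 5.30 and 5.14 with TLR2.CD86, 5.28 and 5.0 with anti-CD40, and 5.07 and 5.07 with anti-CD40 and Pam2CSK4. Every stimulated array lay below both unstimulated arrays. Ube2j1 fell by 0.60 (SE 0.12) with TLR2.CD86 (limma, adjusted p = 0.0269), by 0.68 with anti-CD40 (limma, adjusted p = 0.0123) and by 0.75 with anti-CD40 and Pam2CSK4 (limma, adjusted p = 0.00565). It also fell, under the slide block, by 0.46 with Pam2CSK4 and by 0.47 with anti-CD86. With the block its second, dimmer probe gave -0.28 with Pam2CSK4, -0.04 with TLR2.CD86 and 0.24 with anti-CD40 and Pam2CSK4, none of them called. That probe was called lower with anti-CD86 and with anti-CD40. Syvn1, a ligase of the same pathway, fell by 0.67 with anti-CD40 and by 0.62 with anti-CD40 and Pam2CSK4.

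Ube2r2, a K48 enzyme of cullin-RING ligases, was at 4.04 and 3.95 in unstimulated cells, 3.83 and 3.67 with Pam2CSK4, 4.08 and 4.18 with anti-CD86, 3.86 and 3.73 with TLR2.CD86, 3.49 and 3.33 with anti-CD40, and 3.38 and 3.33 with anti-CD40 and Pam2CSK4. The 4 arrays with anti-CD40 were the lowest. It fell by 0.58 (SE 0.12) with anti-CD40 (limma, adjusted p = 0.0168) and by 0.64 with anti-CD40 and Pam2CSK4 (limma, adjusted p = 0.00811). Its first and second brightest probes share a run of 28 bases, so they are not separate readings, and the run is shown for that reason.
Ube2r2 shared run: ttgaagaattagtctgttcaagacattg
Its probes ranked 3 and 4 share no run of over 8 bases with any other Ube2r2 probe. With slide as a block the 4 probes spanned -0.62 to 0.24 with anti-CD40, where 3 were called lower. With TLR2.CD86 they spanned -0.22 to 0.56, where 1 was called in each direction. Ube2g1, Ube2g2, Ube2j2 and Ube2k, the other members, were not called without the slide term. With the block 2 of the 3 Ube2g2 probes, not the brightest, were called higher with anti-CD86, where the largest difference was 0.93. The Ube2k probes spanned -0.31 to 2.11 with TLR2.CD86, where 3 were called lower and 1 higher. Its dimmest probe was above background on 6 arrays. With anti-CD40 and Pam2CSK4, 2 Ube2j2 probes were called lower and 1 higher (-0.29 to 0.41).

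**Figure D4:**
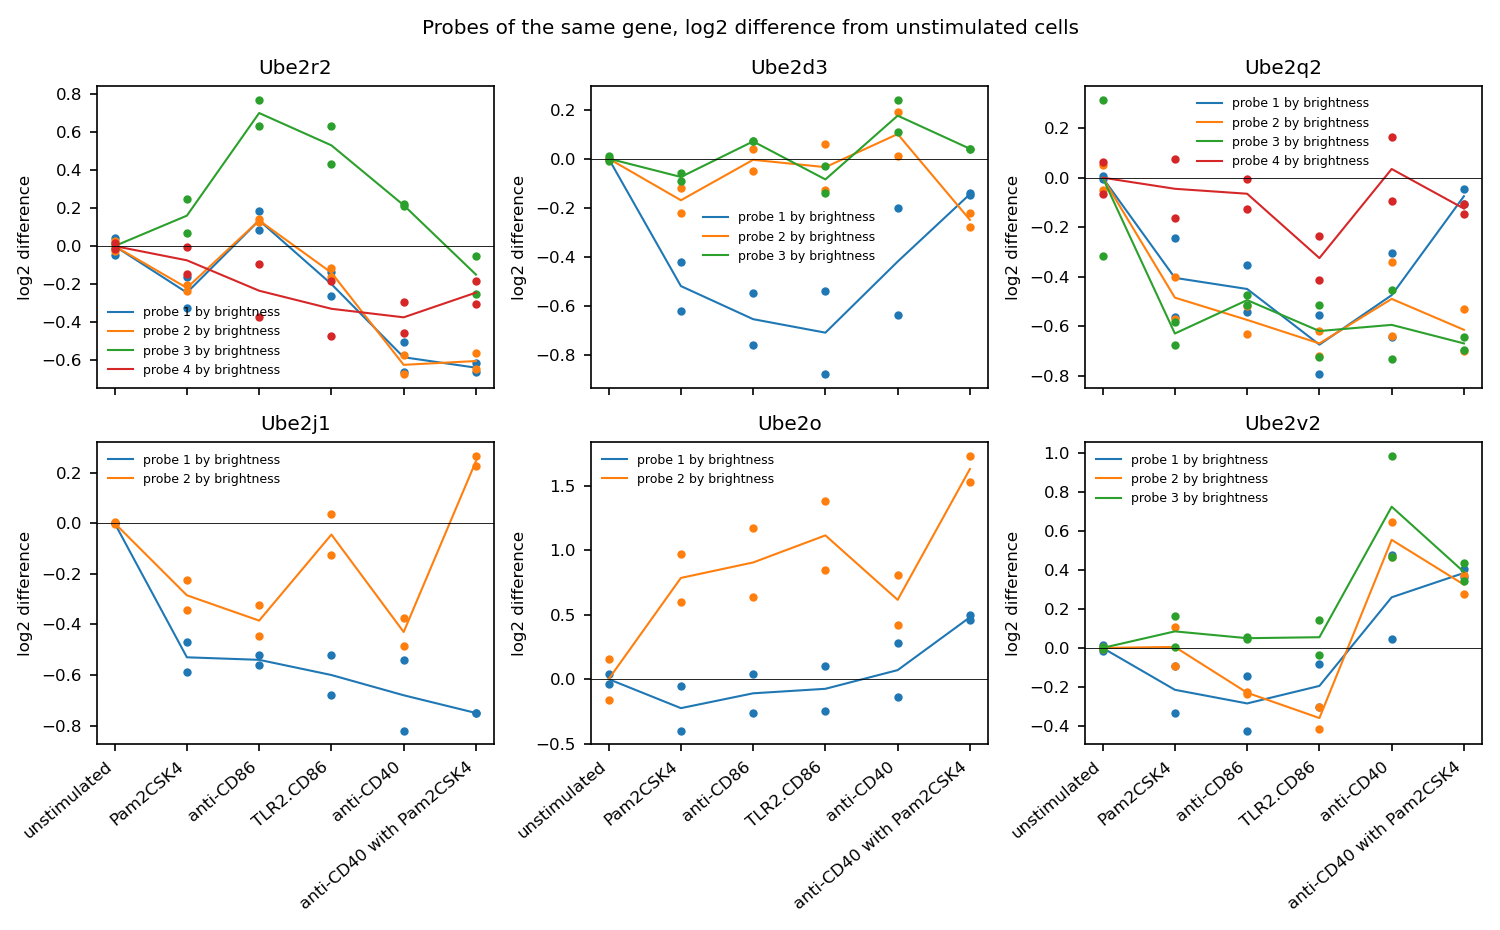
Log2 difference of each probe from its mean in unstimulated cells for 6 genes with several probes (points are arrays, lines join group means, probes numbered by brightness, y axes differ). The probes of Ube2v2 move together with anti-CD40, while those of Ube2r2, Ube2d3, Ube2j1 and Ube2o separate.

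Of the remaining classes, Ube2q2, of the Q subfamily with a long N-terminal extension, was at 2.51 and 2.52 in unstimulated cells, 2.27 and 1.95 with Pam2CSK4, 2.16 and 1.97 with anti-CD86, 1.96 and 1.72 with TLR2.CD86, 2.21 and 1.87 with anti-CD40, and 2.47 and 2.41 with anti-CD40 and Pam2CSK4. Among the stimulated arrays of each slide the TLR2.CD86 array was the lowest, and the arrays of anti-CD40 with Pam2CSK4 were near the unstimulated level. Ube2q2 fell by 0.68 (SE 0.17) with TLR2.CD86 (limma, adjusted p = 0.0419), where 4 of its 4 probes were below 0 with the block and 2 were called. With anti-CD40 and Pam2CSK4, where the brightest probe gave -0.08, its probes ranked 2 and 3 by brightness fell by 0.62 and 0.67 with the block. Ube2z, an E2 charged by Uba6, and Ube2o, a large enzyme that combines E2 and ligase activity, were called with the block only. Ube2z rose by 0.24, 0.43, 0.27, 0.42 and 0.15 in the 5 comparisons. The dimmer of its 2 probes, called in none of them, gave 0.00 with Pam2CSK4, 0.04 with TLR2.CD86 and 0.22 to 0.31 in the others. Ube2o rose by 0.24 with anti-CD40 and by 0.48 with anti-CD40 and Pam2CSK4. The dimmer Ube2o probe gave 1.63 in the last of these and 0.38, not called, with anti-CD40. It was also called higher with Pam2CSK4 (0.55), anti-CD86 (0.68) and TLR2.CD86 (0.88), where the brightest probe was not called. Ube2l3, which serves HECT and RBR ligases, fell with the block by 0.25 with anti-CD86 and by 0.36 with anti-CD40. Its dimmer probe gave 0.09 and 0.07 there, not called, and was called higher (0.24) with anti-CD40 and Pam2CSK4. Ube2h fell with the block by 0.42 with TLR2.CD86, where its dimmer probe gave 0.19, not called.

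The enzymes of ubiquitin-like proteins showed no call without the slide term. With it, each NEDD8 enzyme was called higher in 2 comparisons, and no comparison called both. Ube2m rose by 0.28 with anti-CD86 and 0.24 with TLR2.CD86. Its 2 probes spanned -0.10 to -0.01 with anti-CD40 and -0.05 to -0.03 with anti-CD40 and Pam2CSK4, not called. Ube2f rose by 0.29 with anti-CD40 and 0.30 with anti-CD40 and Pam2CSK4. The dimmer Ube2f probe was called higher in the first of these and gave 0.05, not called, in the second. Ube2cbp, a ligase that shares the name and is no E2, was at -0.71 and -0.50 in unstimulated cells, -0.83 and -1.32 with Pam2CSK4, -1.28 and -1.49 with anti-CD86, -1.39 and -1.88 with TLR2.CD86, -0.86 and -1.51 with anti-CD40, and -1.16 and -1.06 with anti-CD40 and Pam2CSK4. All stimulated arrays were below the unstimulated ones, and it fell by 1.03 (SE 0.27) with TLR2.CD86 (limma, adjusted p = 0.0468). Ube2nl, a pseudogene in RefSeq, rose by 0.34 with anti-CD40 with the block.

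**Figure D5:**
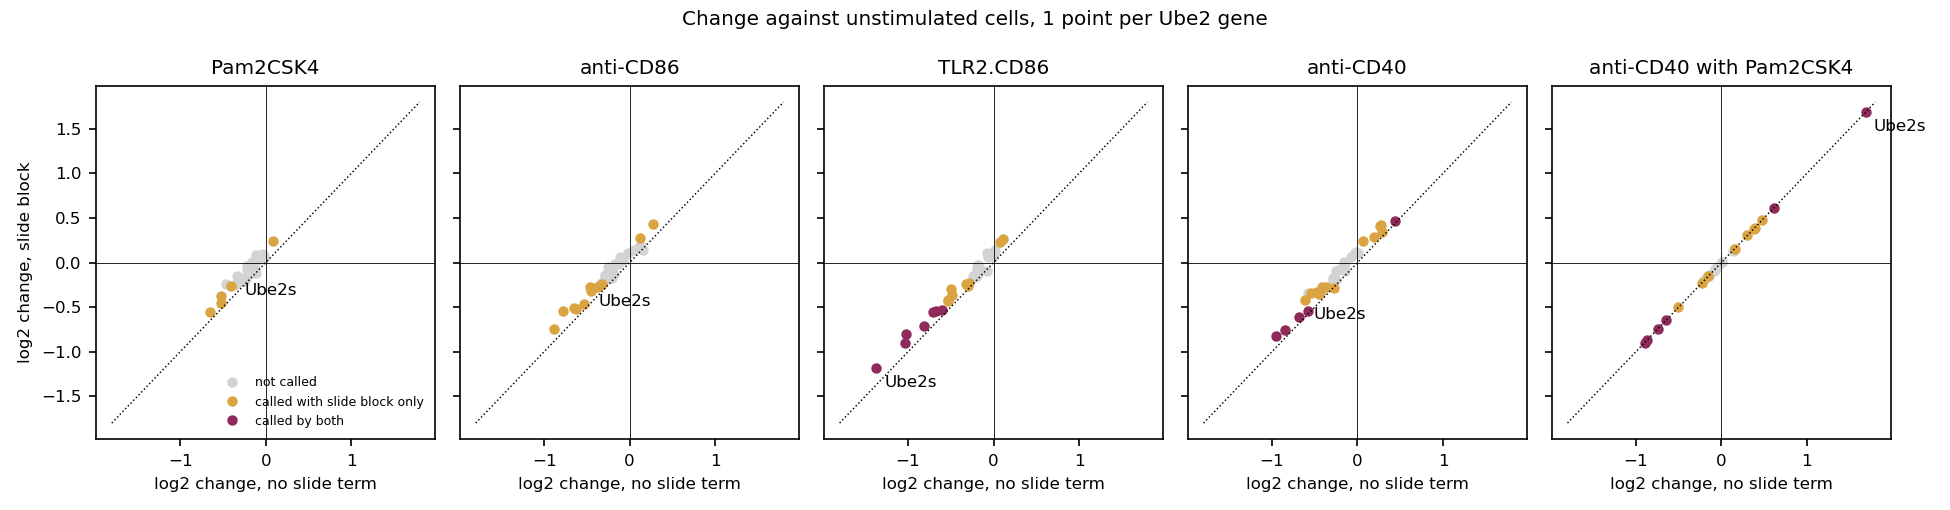
Log2 change of each of the 31 Ube2 genes measured on all arrays against unstimulated cells, without a slide term (x axis) and with slide as a block (y axis), 1 panel per stimulus; purple points were called by both fits, orange by the block fit alone and grey by neither, and the dotted line marks equal values. Most points lie slightly above the line in 4 panels and on it with anti-CD40 and Pam2CSK4, where slide has no part, and Ube2s is at 1.69 there.

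Between stimulated groups, the counts are given for the other 32 genes, since the values of Ube2s chose it. Without the slide term, 0 of 32 were called in TLR2.CD86 against Pam2CSK4 (limma, background 0.0298%, 1 gene at an unadjusted p under 0.05) and 0 against anti-CD86 (0.197%, 2 genes). Anti-CD40 with Pam2CSK4 against Pam2CSK4 called 1 of them (background 10.6%), Ube2e3, with a rise of 0.75 (limma, adjusted p = 0.00549). That call was lost without the first array of anti-CD40 with Pam2CSK4, and 4 were called without either anti-CD40 array. Against anti-CD40 alone 0 were called (background 2.57%, 6 genes at an unadjusted p under 0.05). In the slide block fit the 4 counts were 4 (background 11.1%), 0 (7.45%, 7 genes at an unadjusted p under 0.05), 11 (34.6%) and 9 (15.7%). In that fit the 4 genes called in TLR2.CD86 against Pam2CSK4 were all lower, namely Ube2q2, Ube2cbp, Ube2e2 and Ube2c.

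Whether adding Pam2CSK4 has a different effect with and without the antibody is the interaction of the 2 stimuli. With anti-CD86 it was called by limma for 0 of the other 32 genes without the slide term (background 0.00597%, 1 gene at an unadjusted p under 0.05) and for 0 with it (0.149%, 7 genes). With anti-CD40 it was called for 0 without the slide term (background 0.848%, 11 genes at an unadjusted p under 0.05). It was called for 7 in the slide block fit (8.24%), where Ube2q2, Ube2e1, Ube2w, Ube2l3 and Ube2d3 were above 0 and Ube2nl and Ube2z below 0. The interaction of Ube2s, given as a description, was 2.64 with anti-CD40 and -0.57 with anti-CD86.

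The genes around the E2 enzymes, from lists chosen for this report, moved as follows against unstimulated cells without the slide term. Of all genes, 10.5%, 14.7% and 13% were called lower and 1.79%, 4.67% and 7.38% higher with TLR2.CD86, anti-CD40 and anti-CD40 with Pam2CSK4, with median differences of -0.17, -0.15 and -0.08. Of 15 anaphase-promoting complex genes tested, 3 fell with TLR2.CD86 and 3 with anti-CD40 (Anapc11, Cdc20 and Anapc5 in both), and with anti-CD40 and Pam2CSK4 Anapc11 fell and Cdc27 rose. The subunit Anapc11, the RING partner that binds the E2, fell by 0.64, 0.74 and 0.64 in the 3 comparisons, and the activator Cdc20 had differences of -0.61, -0.61 and -0.47, the last not called. Of 20 mitotic genes tested, 12 fell with TLR2.CD86, 11 fell and 1 (Birc5) rose with anti-CD40, and 8 fell and 1 (Birc5) rose with anti-CD40 and Pam2CSK4. Their median differences were -0.63, -0.51 and -0.41. Of 8 E1 genes tested, 1 (Nae1) fell with anti-CD40 and Pam2CSK4, and of 9 ubiquitin and ubiquitin-like precursors 1 (Sumo2) rose, by 0.76 with anti-CD40 and by 1.03 with anti-CD40 and Pam2CSK4. Of 18 partner ligases, 2 fell with TLR2.CD86 (Fancl and Rnf7), 3 rose and 2 fell with anti-CD40, and 3 rose and 3 fell with anti-CD40 and Pam2CSK4, the risers in both being Birc2, Birc3 and Traf6. Of 8 other E2-like genes, 1 fell with TLR2.CD86 (Birc6), 3 with anti-CD40 (Birc6, Ufc1 and Atg3) and 1 with anti-CD40 and Pam2CSK4 (Aktip). In the Pam2CSK4 and anti-CD86 comparisons these lists held 1 call, a fall of the mitotic gene Kif20a with anti-CD86.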

How the data were processed

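RNA of resting B cells was labelled with Cy3 and hybridised to a 1-colour Agilent custom mouse array. The deposited files hold processed signal intensity per spot, which the authors obtained with Feature Extraction and carried into GeneSpring. A further deposited table holds the authors' log2 values, and each of its columns equals log2 of the processed signal minus a constant within 0.012 of that array's 75th percentile, so its scale and centring are known. Control spots and outlier spots were left out and spots of 1 probe were averaged. The signal was put on the log2 scale and each array's 75th percentile was subtracted. 31599 probes that were above background in each array of 1 or more groups were fitted in R 4.3.3 with limma 3.58.1 (lmFit and eBayes, 12 arrays, no covariate), with Benjamini-Hochberg adjustment and a threshold of 0.05. The fit was tested on simulated data. Alternatives were slide as a block, slide 1 alone, the replicate number as a block, median and quantile scaling, normexp background correction (offset 50), no filter on dim probes, the deposited log2 values, a fit without moderation, any probe of a gene, a 1.5-fold minimum, and leaving out each array. The number of arrays limits the precision. The values of 1 member and of 1 marker list are not reported here, although that member is counted in the totals. Values per array are given for Ube2s and each gene called against unstimulated cells, and for Ube2c and Ube2v2, added for comparison. The members and lists were chosen with earlier results of these data known. In place of the one-way ANOVA named in the methods, the fit without moderation tested each comparison in a model of the 6 groups. No single test across the 6 groups was run.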

Additional observations from a re-analysis of the deposited data

Results flagged for a closer look

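Adding Pam2CSK4 went with opposite differences on different backgrounds for 11 genes. Both arrays of one group lay on one side of both arrays they were compared with, and both arrays of another group lay on the opposite side. In limma's test of the interaction without a slide term, neither antibody gave a call among the 10 genes other than Ube2s. In the slide block fit, the interaction with anti-CD40 was called for Ube2q2, Ube2e1, Ube2w, Ube2l3 and Ube2d3 and not for Ube2a, Ube2b, Ube2d2, Ube2e3 and Ube2o, and the interaction with anti-CD86 was called for none of these 10. The arrays of unstimulated cells and of anti-CD40 with Pam2CSK4 were on slide 1 only. Those of Pam2CSK4 alone and of anti-CD40 alone were split over slides, and 24 Ube2 genes were lower on slide 2 and 0 higher. The share of all genes with such opposite differences was not counted, so the count of 11 has no background and is not read as a trait of these genes. Over all 16751 genes the median interaction with anti-CD40 was 0.26 without the slide term and 0.10 with the block. Over the 33 Ube2 genes it was 0.40 and 0.15. The values that follow are log2 differences without a slide term. For Ube2s, adding Pam2CSK4 gave -0.342 in unstimulated cells, -0.907 with anti-CD86 and 2.3 with anti-CD40. In the same order, Ube2q2 gave -0.402, -0.226 and 0.392, Ube2e1 gave -0.347, -0.153 and 0.352, and Ube2d2 gave -0.109, -0.235 and 0.215. Ube2e3 gave -0.141, -0.0929 and 0.167, and Ube2w gave -0.26, 0.113 and 0.418. For the remaining genes the pair of values is that in unstimulated cells and that with anti-CD40. Ube2d3 gave -0.522 and 0.273, Ube2l3 gave -0.312 and 0.304, Ube2b gave -0.309 and 0.145, Ube2o gave -0.222 and 0.413, and Ube2a gave -0.13 and 0.398.

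Under the slide block, the differences in unstimulated cells and with anti-CD40 were -0.15 and 2.11 for Ube2s, -0.27 and 0.25 for Ube2q2, -0.24 and 0.25 for Ube2e1, -0.12 and 0.23 for Ube2d2, and -0.11 and 0.14 for Ube2e3. They were -0.18 and 0.34 for Ube2w, -0.37 and 0.12 for Ube2d3, -0.22 and 0.22 for Ube2l3, -0.22 and 0.06 for Ube2b, -0.04 and 0.23 for Ube2o, and -0.08 and 0.35 for Ube2a. Each pair kept its opposite signs. The differences with anti-CD86 were the same in both fits.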

How the results depend on the processing

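Counts are of Ube2 genes called among 33, Ube2s included. Against unstimulated cells, slide as a block gave 5 with Pam2CSK4, 12 with anti-CD86, 16 with TLR2.CD86, 18 with anti-CD40 and 14 with anti-CD40 and Pam2CSK4, and slide 1 alone gave 0, 0, 9, 8 and 12. Median scaling gave 0 with TLR2.CD86, 0 with anti-CD40 and 0 with anti-CD40 and Pam2CSK4, and no filter on dim probes gave 0, 0 and 3. Median scaling moved the median difference of all genes with anti-CD40 from -0.15 to -0.72 and reversed Ube2e3 there (-0.12). Quantile scaling gave 2 with anti-CD86 and 8 with anti-CD40, normexp 3 and 9, the fit without moderation 1 with anti-CD86, any probe of a gene 2 with anti-CD86, 8 with anti-CD40 and 12 with anti-CD40 and Pam2CSK4, and the 1.5-fold minimum 3 with anti-CD40. Leaving out 1 of the 12 arrays gave 0 to 2 with anti-CD86, 0 to 9 with TLR2.CD86, 0 to 10 with anti-CD40 and 2 to 6 with anti-CD40 and Pam2CSK4. For anti-CD40 with Pam2CSK4 against Pam2CSK4 the count was 1 with median scaling, 6 with quantile scaling, 12 with the slide block, 5 within slide 1, 5 with any probe and 1 to 5 without 1 array. Against anti-CD40 it was 10 with the slide block and 2 with quantile scaling, normexp, the fit without moderation and any probe. TLR2.CD86 against Pam2CSK4 gave 5 and against anti-CD86 1 with the slide block. That 1 gene was Ube2s, which was also the only Ube2 gene called for the interaction with anti-CD86. The interaction with anti-CD86 gave 1 with the slide block, and that with anti-CD40 gave 8, with 0 within slide 1, 2 without moderation and 2 with any probe. The cause was not tested. Of 18 log2 differences of called members, 18 passed with the slide block, 18 within slide 1, 18 with the deposited log2 values, 17 with normexp, 15 without moderation, 14 with quantile scaling, 3 without the dim filter and 0 with median scaling, and 2 passed whichever array was left out. The 18 include 2 differences of Ube2s, which was chosen by its values, so that its passing is a description and no support. Of the 2 counted last, 1 was that of Ube2s and the other that of Ube2j1, both with anti-CD40 and Pam2CSK4. Where 1 array was left of a group, it was assumed to vary like the others.

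The replicate number as a block gave 5 with anti-CD86, 12 with TLR2.CD86 and 12 with anti-CD40 against unstimulated cells, 6 for anti-CD40 with Pam2CSK4 against Pam2CSK4, 2 against anti-CD40 and 3 for the interaction with anti-CD40. Deviations of same-numbered arrays correlated at 0.538 to 0.674 among the 4 groups split over slides and at -0.107 to 0.0666 in pairs with unstimulated cells or anti-CD40 with Pam2CSK4, so the numbers are not taken as pairs.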
